A study of Mus musculus with 2 samples.

Results

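Genes of neutrophil granules and of calprotectin were followed through single-cell RNA data of tumour-infiltrating immune cells, 10 of the 27998 gene rows in the tables. They were S100a8 and S100a9 (calprotectin), Lcn2, Wfdc21, Ngp, Camp and Ltf (grouped as specific granule genes), and Elane, Prtn3 and Mpo (azurophil granule genes). The genes were named in advance by symbol, and all 10 had a row. They were chosen by their levels in each cell class of these libraries, known beforehand, so every level and every ratio below is a description and none carries a test.

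The antiPD1 library held viable CD45+ (immune) cells sorted from MC38 tumours that had been injected with an antibody against PD-1, an inhibitory receptor of T cells, at 200 µg per mouse per day. The Control library held the same sort from MC38 tumours given a control injection. MC38 is a mouse colon carcinoma line. In both groups it was placed into the skin of C57BL/6J mice at 4 sites, 7 days before treatment, and tumours were collected on day 10. There was 1 library per group, prepared with 10x Genomics 3' chemistry. How many mice a library came from was not stated. No spread between animals could be estimated, and a difference between the libraries cannot be told apart from one between the animals or the captures. Intervals are 95% intervals that cover counting error only.

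Neutrophils build their granules in order as they mature in the bone marrow. Promyelocytes make the azurophil (primary) granules, which carry the serine proteases neutrophil elastase and proteinase 3 and the peroxidase MPO. Myelocytes and metamyelocytes then make the specific (secondary) granules, which carry lactoferrin, the cathelicidin peptide, neutrophilic granule protein and lipocalin 2. Transcription of each set largely stops once its granules are filled, so circulating neutrophils hold the proteins but little of the early transcripts. S100A8 and S100A9 pair as calprotectin, which is cytosolic, sequesters zinc and manganese and signals through TLR4 when released, and both transcripts stay high in mature neutrophils. Classical monocytes also make S100A8 and S100A9, and monocyte precursors pass through a stage that makes azurophil proteins. Wfdc21 encodes a small secreted whey-acidic-protein-domain protein. Its place in a granule is not established, and it was grouped with the specific granule genes only for counting.

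Several of the genes lie close together in the mouse genome (GRCm38). S100a8 occupied chr3:90668978-90670035 on the plus strand and S100a9 chr3:90692632-90695721 on the minus strand, 22596 bases apart with no protein-coding gene between them. Prtn3 (chr10:79874476-79883174) and Elane (chr10:79886247-79888215) lay on the same plus strand, 3072 bases apart, also with none between them. Camp, Ngp and Ltf were all on chromosome 9, but 8 protein-coding genes separated Camp from Ngp and 20 separated Ngp from Ltf. Lcn2 was on chromosome 2, and Wfdc21 and Mpo were on chromosome 11. Prtn3 overlapped Plppr3 and Mpo overlapped Gm11505, each on the opposite strand. No source used here says whether the counting was stranded, so whether reads of these pairs were kept apart was not known.

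The promoter sequences show what members of each set share that their levels were not used for. RefSeq promoters (GRCm38.p6) were matched for 9 of the 10 genes, all but Wfdc21, and the 250 bases before each start were searched on both strands. The 3 motifs searched were chosen after the sequences had been read. GAGGAAGT, a purine-rich word bound by the myeloid factor PU.1, was found in 2.44% of 32851 mouse promoters and in 4 of the 9. All 3 azurophil genes held it on the coding strand, and S100a8 held its reverse complement. In the windows below, written 5′ to 3′ on each gene's own strand, capitals mark the match.
Elane, chr10:79886216-79886245, plus strand: cgtgtcccaggGAGGAAGTagggctgtggc
Prtn3, chr10:79879556-79879595, plus strand: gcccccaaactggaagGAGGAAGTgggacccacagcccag
Mpo, chr11:87793549-87793578, plus strand: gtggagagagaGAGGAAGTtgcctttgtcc
S100a8, chr3:90668883-90668922, plus strand: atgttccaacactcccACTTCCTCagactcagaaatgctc

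TTGCNNAA, a word bound by C/EBP factors, of which C/EBP epsilon drives specific granule genes, was found in 9.56% of the same promoters. It was present in 4 of the 9, namely S100a9 and the specific granule genes Lcn2, Ngp and Ltf, and in none of the azurophil genes. Ltf held it on the reverse strand, and Ngp held a second match 11 to 4 bases before its start.
S100a9, chr3:90695934-90695971, minus strand: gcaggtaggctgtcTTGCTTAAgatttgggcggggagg
Lcn2, chr2:32387937-32387966, minus strand: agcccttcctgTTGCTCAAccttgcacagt
Ngp, chr9:110419654-110419693, plus strand: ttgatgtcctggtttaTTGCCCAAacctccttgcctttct
Ltf, chr9:111019201-111019240, plus strand: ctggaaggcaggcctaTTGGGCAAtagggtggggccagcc

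Counted back from the RefSeq start, the GAGGAAGT word ended 78 bases away in Elane, 88 in Prtn3, 217 in Mpo and 165 in S100a8. TGTGGT, a RUNX word, was in 14.0% of promoters and in 1 of the 9, S100a9. Camp held none of the 3. The Lcn2 window and the second Ngp match lie within annotated exons. These matches describe letters in a window and are not evidence of binding.

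Cells were barcodes with at least 500 unique molecular identifiers (UMIs, 1 per captured transcript 3' end) and at most 10% mitochondrial UMIs, 3767 in the antiPD1 and 1241 in the Control library, with medians of 2480 and 3127 UMIs. The matrices held 13717817 and 5203415 UMIs, and 4 cell barcodes were shared between them. Clusters were formed without the 10 genes and named from marker lists. Neutrophil-like cells numbered 391 of antiPD1 cells (10.4%, 9.42 to 11.4) and 44 of Control cells (3.55%, 2.59 to 4.73). All 10 neutrophil markers were present in both libraries, summing to 48237 CPM in antiPD1 and 35604 CPM in Control cells (CPM is a gene's UMIs per 1e6 UMIs of the class). All 6 measured B cell markers were at 0, but other lymphocyte markers were not. T-cell markers summed to 231 CPM in antiPD1 and 98.8 CPM in Control, and NK-cell markers to 421 CPM and 123 CPM. Neutrophil-like cells were shallow, with medians of 1192 and 819 UMIs. Markers of other cells differed between the libraries within this class: 12 macrophage markers summed to 77.6 CPM (9 present) in antiPD1 and 691 CPM (6 present) in Control, and 13 monocyte markers to 4866 CPM (10 present) and 1605 CPM (6 present). Their part in the ratios below was not tested.

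The 10 genes fell into 2 patterns by cell class. Calprotectin and specific granule transcripts were concentrated in neutrophil-like cells, and azurophil transcripts in monocyte-like and macrophage-like cells. Neutrophil-like cells held 91.8% of the calprotectin UMIs of all antiPD1 cells and 86.3% of those of all Control cells. In the antiPD1 library they also held 98.7% of Ngp, 99.1% of Camp, 91.1% of Ltf, 85.8% of Lcn2 and 85.7% of Wfdc21 UMIs. Elane had 65 UMIs in all antiPD1 cells, of which 70.8% were in S100a8-high monocyte-like cells and 27.7% in other monocyte-like cells. Prtn3 had 208 UMIs, of which 39.4% were in S100a8-high and 51.0% in other monocyte-like cells. In Control cells 71.1% of the 45 Prtn3 UMIs were in macrophage-like cells, a large class there. Its Control level was 21.3 CPM in those cells and 29.3 CPM in other monocyte-like cells. In cells like conventional type 2 dendritic cells it was 10.8 CPM (5 UMIs). Mpo had 6 UMIs in all antiPD1 cells and was too rare to place.

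**Figure D1:**
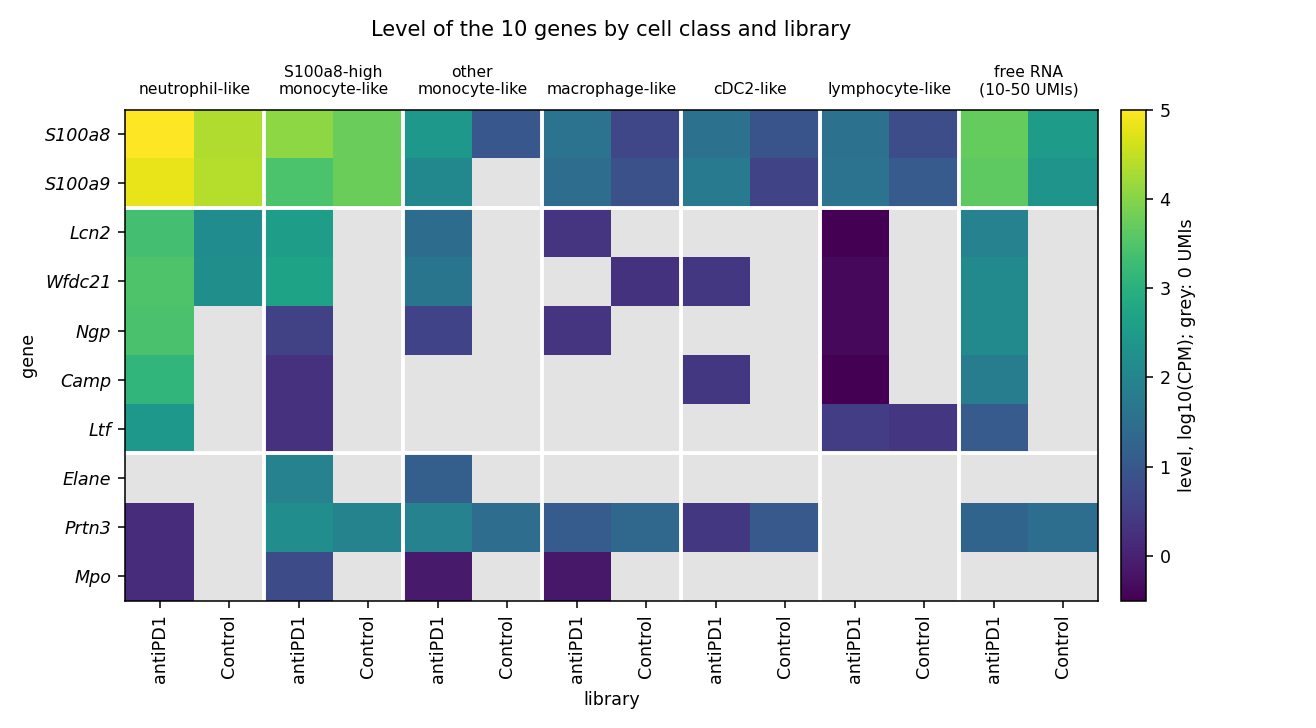
Level of each gene (rows, log10 CPM by colour, grey for 0 UMIs) in each cell class and in free RNA (barcodes of 10 to 50 UMIs), antiPD1 left of Control in each pair. Calprotectin and specific granule genes are brightest in neutrophil-like cells, whereas Elane and Prtn3 appear in monocyte-like cells and are at or near 0 UMIs in neutrophil-like cells.

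S100a8 and S100a9 were the most abundant of the 10 genes in neutrophil-like cells and were higher in those of the antiPD1 library. S100a8 had 64237 UMIs in antiPD1 neutrophil-like cells (99732 CPM, 98963 to 100507) and 881 in Control ones (21752 CPM, 20340 to 23238), a ratio of 4.58-fold (4.29 to 4.91, log2 2.20). S100a9 had 41932 UMIs in antiPD1 (65102 CPM) and 1003 in Control neutrophil-like cells (24765 CPM), a ratio of 2.63-fold (log2 1.39, 1.30 to 1.49). Together they came to 164835 CPM in antiPD1 and 46517 CPM in Control neutrophil-like cells, 3.54-fold (log2 1.83, 1.76 to 1.89). Among the 2640 genes with at least 20 UMIs in the higher library of this class, 5.76% were at least 2-fold higher in antiPD1 and 26.8% at least 2-fold lower. Both calprotectin genes and all 5 specific granule genes were among the higher ones, a count that the choice of genes had used. The median log2 ratio of all tested genes was -0.53. CPM sums to a fixed total, so a class with more calprotectin has less left for its other genes. Control counts under 3 were also set to 3, which is 74.1 CPM in this class. A gene with few antiPD1 UMIs could thus count as lower for lack of Control UMIs. What part either had in the 26.8% and in the median was not tested.

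The calprotectin difference depended on the depth of the cells compared. Among cells of 500 to 999 UMIs, the 150 antiPD1 cells had 63773 CPM of calprotectin and the 30 Control cells 53676 CPM, a log2 ratio of 0.25 (0.16 to 0.34). Among cells of 1000 to 1999 UMIs, the 142 antiPD1 cells had 115905 CPM and the 13 Control cells 34705 CPM, a log2 ratio of 1.74 (1.62 to 1.87). Control had 1 cell of 2000 to 3999 UMIs, at 56443 CPM, against 202833 CPM over 76 antiPD1 cells, and no deeper cell, against 23 in antiPD1. Retnlg, a resistin-like granule gene of mature neutrophils that was not among the 10, had 4430 CPM in antiPD1 and 3976 CPM in Control cells of 500 to 999 UMIs. At 1000 to 1999 UMIs Retnlg had 8463 CPM in antiPD1 and 1404 CPM in Control cells. In antiPD1 cells calprotectin therefore took a larger share of deeper cells, and the shallow cells of the libraries lay close to each other. What depth contributed to the pooled ratio was not tested.

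**Figure D2:**
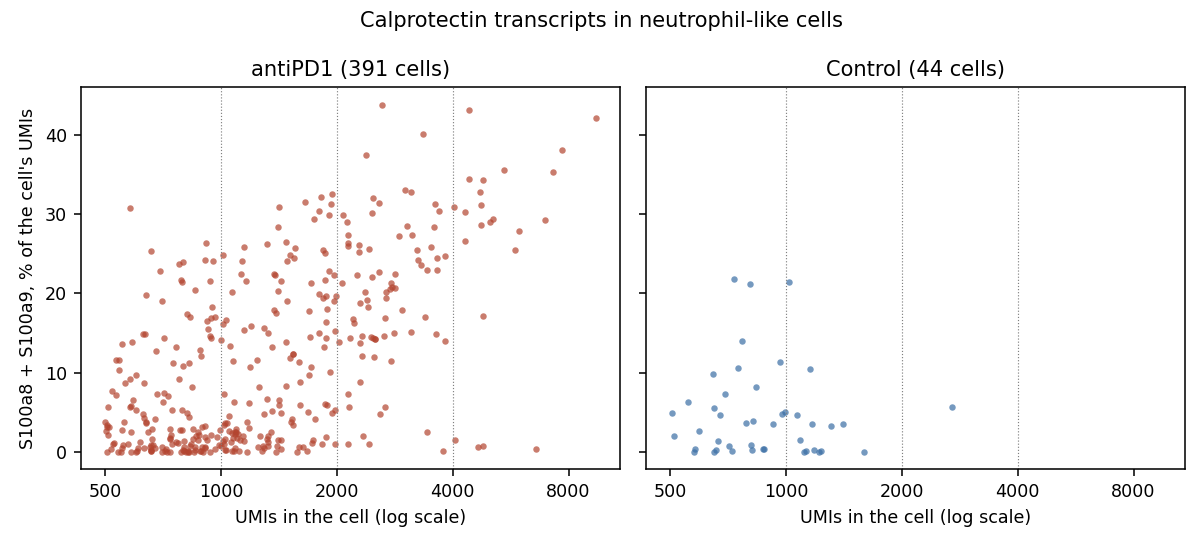
Share of each neutrophil-like cell's UMIs that came from S100a8 and S100a9 (y axis, %) against the cell's UMI total (x axis, log scale), one point per cell, antiPD1 left and Control right. Dotted lines mark 1000, 2000 and 4000 UMIs. In antiPD1 cells the share spreads up to 43.8% and deep cells are mostly high, while nearly all Control cells lie below 2000 UMIs.

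Single cells varied widely within each library. The per-cell calprotectin share had a median of 8.74% in antiPD1 neutrophil-like cells (quartiles 1.66% and 20.3%, highest 43.8%) and of 3.49% in Control ones (quartiles 0.332% and 5.80%, highest 21.8%). No calprotectin UMI was found in 18 of 391 antiPD1 and 5 of 44 Control cells. The ratio of S100a8 to S100a9 also differed: 1.53 UMIs of S100a8 per S100a9 UMI in antiPD1 (1.51 to 1.55) and 0.878 in Control neutrophil-like cells (0.801 to 0.963). Both genes are counted once per 3' end, so no division by length was made. The antiPD1 ratio moved with depth. It was 0.912 in antiPD1 cells of 500 to 999 UMIs (0.870 to 0.956), against 0.970 in Control cells of that depth (0.864 to 1.09). At 1000 to 1999 UMIs it was 1.39 in antiPD1 (1.35 to 1.42) and 0.727 in Control (0.611 to 0.865), and in the 23 deepest antiPD1 cells 1.90. S100a8 outnumbered S100a9 in the pooled antiPD1 cells and in their deeper cells, but not in the shallow ones.

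Most UMIs of the specific granule genes were in the antiPD1 library, which also had more and deeper neutrophil-like cells. Lcn2, which encodes the siderophore-binding lipocalin 2, had 1455 UMIs in antiPD1 neutrophil-like cells (2259 CPM) and 6 in Control ones (148 CPM), 15.3-fold (log2 3.93, 2.81 to 5.38). Wfdc21 had 2002 UMIs in antiPD1 (3108 CPM) and 7 in Control (173 CPM), 18.0-fold (log2 4.17, 3.12 to 5.49). Lcn2 was detected in 165 of 391 antiPD1 (42.2%) and 3 of 44 Control cells (6.82%), and Wfdc21 in 195 (49.9%) and 4 (9.09%). With each cell thinned to 500 UMIs the shares were 26.3% in antiPD1 and 4.55% in Control for Lcn2, and 36.3% and 6.82% for Wfdc21. As background, Lcn2 had a UMI in 1 and Wfdc21 in 2 of 1814 antiPD1 lymphocyte-like cells, whose median depth of 2278 UMIs was above the 1192 of the neutrophil-like cells.

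Lcn2 and Wfdc21 also depended on depth. All 7 Control UMIs of Wfdc21 and 5 of the 6 of Lcn2 lay in cells of 500 to 999 UMIs. At that depth Lcn2 was at 373 CPM in antiPD1 (41 UMIs) and 226 CPM in Control, a log2 ratio of 0.72 (-0.61 to 2.42). Wfdc21 was at 564 CPM in antiPD1 (62 UMIs) and 316 CPM in Control, a log2 ratio of 0.83 (-0.29 to 2.21). Both intervals include 0, so at this depth no difference could be seen. At 1000 to 1999 UMIs Lcn2 had 206 UMIs in antiPD1 (1014 CPM) and 1 in Control (63.8 CPM), a ratio of 15.9 (2.82 to 631). Wfdc21 had 470 in antiPD1 (2314 CPM) and 0 in Control there, at least 9.79-fold higher by its interval. Within the antiPD1 library Lcn2 came to 1781 CPM at 2000 to 3999 UMIs and 6771 CPM above that, and Wfdc21 to 3664 and 5738 CPM. What depth contributed to the pooled ratios was not tested.

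Ngp (neutrophilic granule protein), Camp (cathelicidin) and Ltf (lactoferrin) had no UMI in Control neutrophil-like cells. Ngp had 1698 UMIs in antiPD1 (2636 CPM), Camp 844 (1310 CPM) and Ltf 173 (269 CPM). Against the level that 3 UMIs over the 44 Control cells would give (74.1 CPM), antiPD1 was at least 35.6-fold higher for Ngp, 17.7-fold for Camp and 3.63-fold for Ltf. Control counted 40501 UMIs in this class and antiPD1 644094, so low levels in Control could not be seen. In cells of 500 to 999 UMIs Ngp was at 18.2 CPM in antiPD1 (2 UMIs), where 3 Control UMIs would be 136 CPM, and at 1000 to 1999 UMIs at 83.7 CPM in antiPD1, where they would be 191 CPM. At matched depth up to 1999 UMIs the Control cells could thus not have shown Ngp at the antiPD1 level. Most of the antiPD1 signal came from few cells. Of 391 cells, 330 had no UMI of the 3 genes, 23 had 1, 22 had 2 to 4, 3 had 5 to 9, 5 had 10 to 49 and 8 had 50 or more.

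A pair of cells held 1888 of the 2715 UMIs of these 3 genes (69.5%), and the top 12 held 95.9%. The pair held 60.0% of Ngp, 85.8% of Camp and 84.4% of Ltf UMIs, whereas the 2 cells with most of each gene held 7.59% of Wfdc21, 5.76% of S100a9 and 6.95% of S100a8 UMIs. Lcn2 lay between, with 291 of its 1455 UMIs in 2 cells. Both cells were deep, at 9404 and 7677 UMIs. They had 586 and 432 UMIs of Ngp, 406 and 318 of Camp, 86 and 60 of Ltf, and 2567 and 1895 of S100a8, with no Elane, Prtn3, Mpo, Cxcr2 or Mki67 UMI. The folds for Ngp, Camp and Ltf therefore describe a handful of cells, whereas Wfdc21 was spread more widely, with 30 cells needed to reach 50% of its UMIs, against 10 for Lcn2 and 2 each for Ngp, Camp and Ltf.

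**Figure D3:**
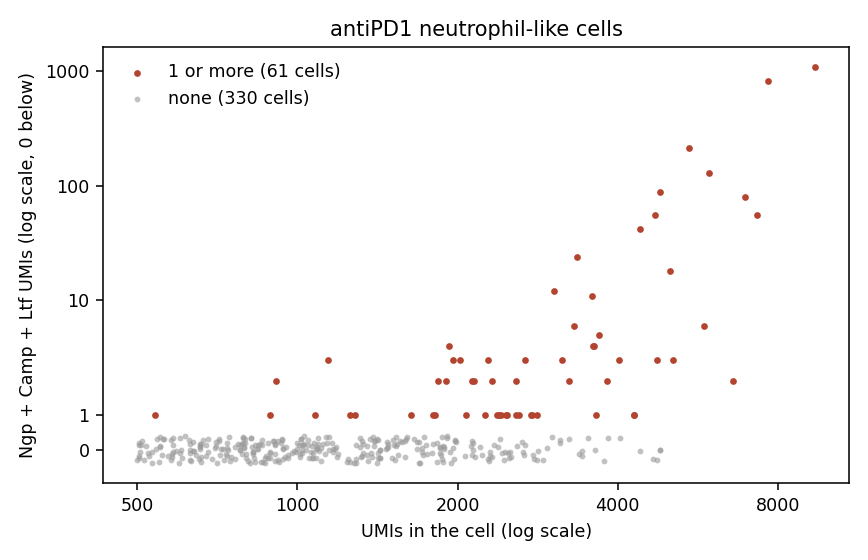
Summed UMIs of Ngp, Camp and Ltf in each antiPD1 neutrophil-like cell (y axis, log scale with cells at 0 spread below) against the cell's UMI total (x axis, log scale). The 61 cells with a UMI include 2 at 1078 and 810 UMIs, while 330 cells have none.

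Other maturation genes were set beside these counts. The 13 antiPD1 cells with 10 or more UMIs of Ngp, Camp and Ltf had a median of 5012 UMIs, the 48 cells with 1 to 9 had 2442.5 and the 330 with none had 1065.5. Depth thus differed between these sets of cells, and its part in the values below was not tested. On the CPM scale Lcn2 was at 10573 in the 13 cells, 2612 in the 48 and 814 in the 330. Mmp8, a specific granule collagenase, was at 2109, 597 and 361 CPM in the same order, and Cd177, a surface protein stored in specific granules, at 545, 38.8 and 9.02 CPM. Cxcr2, the chemokine receptor of mature neutrophils, ran the other way, at 265, 488 and 555 CPM. Retnlg was at 44235 CPM in the 13 cells, 33846 in the 48 and 8685 in the 330, but at 11006 in the top 2 cells. Cebpe, which encodes C/EBP epsilon, was at 468 CPM in the top 2 cells and 22.5 CPM in the 330. Mki67, a marker of cycling cells, had no UMI in any of the 391.

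The azurophil genes were at or near 0 in neutrophil-like cells. Elane had no UMI in antiPD1 neutrophil-like cells (3 UMIs would be 4.66 CPM), and none in Control ones (3 UMIs would be 74.1 CPM). Prtn3 and Mpo had 1 UMI each in antiPD1 and none in Control neutrophil-like cells. Of 5 other azurophil granule and promyelocyte genes, Ctsg (cathepsin G) had no UMI in either library, and Prss57, Ms4a3, Gfi1 and Myb had 2, 1, 1 and 1 in antiPD1, and 1, 0, 0 and 0 in Control. Specific granule members outnumbered azurophil members by 6172 to 2 UMIs in antiPD1 neutrophil-like cells (ratio 3086, 854 to 25488). Without the top 2 cells the ratio was 1944, an alternative chosen after the values were seen. The Control cells had 13 specific and 0 azurophil UMIs.

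Further gene lists of the neutrophil, counted from genes with at least 20 UMIs in the higher library, held genes higher and genes lower in antiPD1. Of 9 other specific granule genes 6 were measured, and 3 were at least 2-fold higher in antiPD1 neutrophil-like cells. Cebpe, with 23 UMIs in antiPD1 and 1 in Control, counted as lower because Control counts under 3 were set to 3. Pglyrp1, a peptidoglycan-recognition protein, had 782 UMIs in antiPD1 and 16 in Control (log2 1.62, 0.91 to 2.43). Mmp8 had 388 in antiPD1 and 2 in Control (log2 3.61, 1.75 to 6.66). Chil3, a chitinase-like protein with a close paralogue, had 206 in antiPD1 and 0 in Control. Hp (haptoglobin) had 860 and 32 (log2 0.76, 0.25 to 1.31). The median of the 6 was 1.19, against -0.53 over all tested genes.

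Genes of gelatinase granules and of mature neutrophils were closer between the libraries. Of 8, 7 were measured, 3 were at least 2-fold higher and none lower. Retnlg had a log2 ratio of 2.64 (2.37 to 2.92), Mmp9 (gelatinase B) of 1.98 (0.84 to 3.43) and Fpr1 (a formyl-peptide receptor) of 1.83 (0.69 to 3.29). Cxcr2 was at 0.56 (-0.21 to 1.45), Csf3r, the G-CSF receptor, at 0.56 (-0.24 to 1.48), and Il1r2, a decoy interleukin-1 receptor, at -0.13 (-0.57 to 0.34). The list median was 0.56. Within cells of 500 to 999 UMIs the Retnlg log2 ratio was 0.16 (-0.17 to 0.50). What depth contributed to the pooled ratios of these lists was not tested.

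Among 8 inhibitors of granule proteases, 7 were measured, 4 were higher and 1 lower. Slpi, the secretory inhibitor of elastase, had 3597 CPM in antiPD1 and 3876 CPM in Control neutrophil-like cells (log2 -0.11, -0.34 to 0.13). Cstb (cystatin B) was lower, at 2085 CPM in antiPD1 and 7259 CPM in Control (log2 -1.80, -1.98 to -1.61). Stfa2l1, a stefin, had 1177 UMIs in antiPD1 and 16 in Control (log2 2.21, 1.50 to 3.02). Stfa1, Stfa2, Stfa3 and BC100530 had 251, 215, 87 and 149 in antiPD1 and 0 in Control. The stefins are near-identical copies, so how their reads were split is uncertain.

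Of 10 regulators 9 had a row and 5 were measured, none at least 2-fold higher and 3 lower, 1 of them Cebpe as above. Spi1, which encodes PU.1, had 927 CPM in antiPD1 and 741 CPM in Control neutrophil-like cells (log2 0.32, -0.21 to 0.90). Cebpb had 96.3 CPM in antiPD1 and 296 CPM in Control (log2 -1.62, -2.53 to -0.59), and Runx1 66.8 CPM in antiPD1 and 247 CPM in Control (log2 -1.89, -2.90 to -0.73). Among 7 receptors of the members 3 were measured, 1 higher and 1 lower. Fpr2 had 305 UMIs in antiPD1 and 4 in Control (log2 2.26, 0.89 to 4.15), and Bsg (basigin, a receptor of S100A9) 160 in antiPD1 and 29 in Control (log2 -1.53, -2.10 to -0.90). Tlr4 had 53 in antiPD1 and 1 in Control. Of 10 cell cycle genes only Pcna was measured, with 21 UMIs in antiPD1 and 0 in Control.

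A second set of cells with calprotectin transcripts lay among the monocyte-like cells. S100a8-high cells were cells of monocyte-like or macrophage-like clusters with at least 3 S100a8 UMIs and at least 1000 CPM of S100a8 within the cell. They numbered 65 of 3767 antiPD1 cells (1.73%, 1.33 to 2.19) and 3 of 1241 Control cells (0.242%, 0.0499 to 0.705). The class is a range cut from S100a8, not a cell type, and its S100a8 level is fixed by the cut. Of 595 antiPD1 monocyte-like and macrophage-like cells, 385 had no S100a8 UMI, 69 were above 0 and below 300 CPM, 42 at 300 to 500 and 29 at 500 to 1000. Above 1000 CPM, 21 lay below 2000, 7 at 2000 to 3000, 18 at 3000 to 10000 and 24 at 10000 or more. The lowest cell inside had 1006 CPM and the highest outside 1114 CPM, with fewer than 3 UMIs. Near the cut, 16 inside cells were below 2000 CPM and 34 outside cells at 500 CPM or more.

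In the antiPD1 library 63 of the 65 lay in the monocyte-like cluster of 264 cells, and 1 in each macrophage-like cluster. None of the 67 Control cells of the monocyte-like cluster was inside. The 3 Control cells lay in macrophage-like clusters and carried 41, 17 and 59 UMIs of S100a8, with 37, 24 and 62 of S100a9. They had no Lcn2, Wfdc21, Ngp, Camp, Ltf, Elane or Mpo UMI, and the third had 2 of Prtn3 beside 16 of Retnlg and 15 of Il1r2. The 10 neutrophil markers summed to 5038 CPM in the 3 Control cells, against 748 CPM in Control other monocyte-like cells, and what part neutrophil RNA had in their S100a8 was not tested.

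The 65 antiPD1 cells carried monocyte markers, and their summed neutrophil markers were close to those of their neighbours, though single markers differed. All 13 monocyte markers were present, at 13624 CPM. The 10 neutrophil markers summed to 480 CPM in S100a8-high and 476 CPM in other monocyte-like cells of the antiPD1 library (log2 ratio 0.01, -0.21 to 0.22), which was 0.995% of the level in neutrophil-like cells, and Cxcr2 was at 0. Per cell that sum ranged from 0 to 3345 CPM with a median of 409. Cxcl2 supplied 96 of the 254 neutrophil marker UMIs in S100a8-high and 299 of the 595 in other monocyte-like cells. It was lower in S100a8-high cells (log2 -0.40, -0.75 to -0.06), and Il1r2 was higher (1.53, 0.56 to 2.51). The other markers with UMIs had intervals that included 0. What part neutrophil RNA had in the 65 cells was not tested. Progenitor markers had 8 UMIs in all (15.1 CPM), with Cd34, Gfi1 and Myb at 0. The cells were deep, with a median of 8037 UMIs, against 4706 in other monocyte-like cells. No doublet caller was run. After leaving out the deepest 5% of cells of each library 39 remained, with Elane at 89.2 CPM and Prtn3 at 161 CPM.

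S100a8-high monocyte-like cells held only part of the neutrophil programme. S100a8 had 6261 UMIs in the 65 cells (11826 CPM), 11.9% of the neutrophil-like level of the same library. S100a9 had 1484 UMIs (2803 CPM), 4.31% of it, so that S100a8 outnumbered S100a9 by 4.22 to 1 (3.99 to 4.47), against 1.53 in neutrophil-like cells. Lcn2 had 195 UMIs (368 CPM), 16.3% of the neutrophil-like level, and Wfdc21 had 261 (493 CPM), 15.9%. Ngp, Camp and Ltf had 2, 1 and 1 UMIs, or 0.143%, 0.144% and 0.703% of the neutrophil-like level. The specific granule set thus split, with 456 UMIs of Lcn2 and Wfdc21 and 4 of Ngp, Camp and Ltf in these cells, against 3457 and 2715 in neutrophil-like cells. This split was drawn after the values were seen, and the neutrophil-like side of it rests on few cells.

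**Figure D4:**
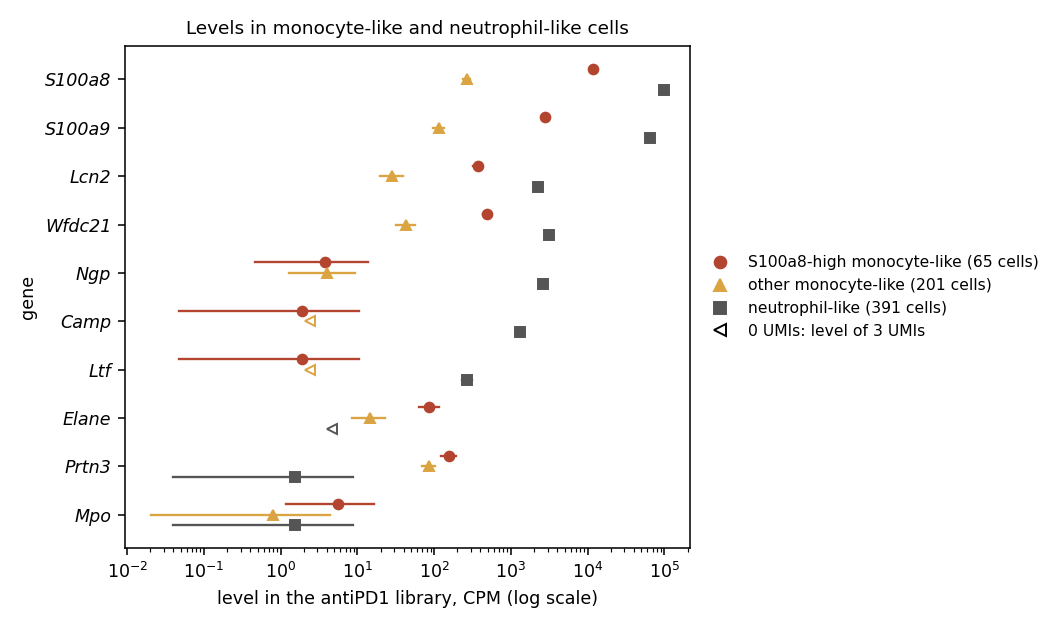
Level of each gene in the antiPD1 library (x axis, CPM, log scale) in S100a8-high monocyte-like cells (circles), other monocyte-like cells (triangles) and neutrophil-like cells (squares), with 95% Poisson intervals as lines. Open triangles mark the level of 3 UMIs where none was found. Lcn2 and Wfdc21 lie between neutrophil-like and other monocyte-like cells, Ngp, Camp and Ltf lie far below neutrophil-like cells, and Elane and Prtn3 are higher than in neutrophil-like cells.

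Within the antiPD1 library the granule genes were set against other monocyte-like cells. The monocyte-like cluster held genes of classical (Ly6c2) and of nonclassical monocytes (Ace, Treml4). From its 97 cells without S100a8 to its 24 cells with most, Ace went from 101 to 5.47 CPM and Treml4 from 115 to 21.9 CPM. Ly6c2 went from 2236 to 3826 CPM. What part this mix had in the folds below was not tested. Of 6097 genes measured, 1.8% were at least 2-fold higher in S100a8-high cells and 6.59% at least 2-fold lower, with a median log2 ratio of -0.08. Apart from Prtn3, 5 of the 6 measured members were among the higher ones, of which S100a8 was fixed by the cut. Lcn2 was at 368 CPM in S100a8-high and 28.0 CPM in other monocyte-like cells, 13.1-fold (log2 3.72, 3.19 to 4.28). Wfdc21 was at 493 CPM in S100a8-high and 42.4 CPM in other cells, 11.6-fold (log2 3.54, 3.11 to 3.99). Elane was at 86.9 CPM in S100a8-high and 14.4 CPM in other cells, 6.03-fold (log2 2.59, 1.78 to 3.47). S100a9 was at 2803 CPM in S100a8-high and 115 CPM in other cells (log2 4.60, 4.36 to 4.86). Prtn3 was at 155 CPM in S100a8-high and 84.9 CPM in other cells, 1.82-fold (log2 0.87, 0.43 to 1.30).

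The azurophil genes were therefore found in monocyte-like cells at levels not seen in neutrophil-like cells of the antiPD1 library. Elane had 46 UMIs in 16 of the 65 cells, at most 14 in a cell, and 18 UMIs in 11 of 201 other monocyte-like cells. Prtn3 had 82 UMIs in 29 of the 65 and 106 UMIs in 28 of the 201. Neither gene had a UMI in 1814 antiPD1 lymphocyte-like cells, a count of 0 that still permits 0.165% of cells with a UMI. In free RNA, barcodes of 10 to 50 UMIs, Elane had no UMI in either library, and Prtn3 had 6 in antiPD1 (18.4 CPM) and 1 in Control (31.1 CPM), while antiPD1 barcodes of 5 to 20 UMIs held 5 Elane UMIs (7.11 CPM). Mpo, the third azurophil gene, had 3 UMIs in the 65 cells and 1 in the 201.

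Elane, Prtn3, Lcn2 and Wfdc21 were then counted per cell. In the monocyte-like cluster of the antiPD1 library, Lcn2 or Wfdc21 was found in 46 of 63 S100a8-high cells (73.0%, 60.3 to 83.4) and 32 of 201 others (15.9%, 11.2 to 21.7). Elane or Prtn3 was found in 31 of the 63 (49.2%, 36.4 to 62.1) and 30 of the 201 (14.9%, 10.3 to 20.6). Both pairs were found in 30 of the 63 and 14 of the 201. After each cell was thinned to 500 UMIs the shares were 27.0% and 3.48% for Lcn2 or Wfdc21, and 14.3% and 2.99% for Elane or Prtn3, in S100a8-high and other cells. Both pairs were then found in 4 of the 63 and 0 of the 201, so the overlap at full depth moved with the depth of the cells. What part depth had in it was not tested.

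Across the range of S100a8 the other genes did not move alike. The monocyte-like cluster of the antiPD1 library was divided by S100a8 into 97 cells at 0, 76 below 500 CPM, 24 at 500 to 1000, 26 at 1000 to 3000, 17 at 3000 to 10000 and 24 at 10000 or more. Lcn2 was at 5.59, 36.1, 41.3, 45.3, 217 and 821 CPM in that order. Wfdc21 was at 14.0, 47.7, 77.4, 181, 347 and 930 CPM. Both were highest in the cells with most S100a8. Elane was at 11.2, 18.8, 5.16, 28.3, 94.0 and 137 CPM, highest in the cells with most S100a8 (25 UMIs in 10 of the 24 cells). Prtn3 was at 58.7, 99.8, 82.5, 68.0, 129 and 263 CPM, present throughout. S100a9 was at 69.9, 132, 119, 227, 382 and 7575 CPM, so its rise lay almost wholly in the top 24 cells. Several bins held fewer than 30 cells, and the Elane value at 500 to 1000 CPM rested on 1 UMI. At 3000 to 10000 CPM the Elane value rested on 16 UMIs in 3 cells and the Prtn3 value on 22 UMIs in 5 cells. A single cell of that bin held 28 UMIs of Elane, Prtn3 and Mpo together.

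The balance of specific to azurophil transcripts in these cells depended on which specific genes were counted. Specific members outnumbered azurophil members by 460 to 131 UMIs in the 65 antiPD1 cells, a ratio of 3.51 (2.89 to 4.30). In other antiPD1 monocyte-like cells there were 93 specific and 125 azurophil UMIs (0.744, 0.563 to 0.981), and in antiPD1 macrophage-like cells 6 and 19. Counting Ngp, Camp and Ltf alone as the specific set gave 0.0305 per azurophil UMI in the 65 cells and 0.04 in other monocyte-like cells, from 4 and 5 UMIs. The difference between these 2 sets of cells thus rested on Lcn2 and Wfdc21, and the granule of Wfdc21 is not established. The 3 Control cells had no specific and 2 azurophil UMIs.

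Other genes of the same lists differed less between S100a8-high and other monocyte-like cells. Of 9 other specific granule genes 6 were measured and 2 were at least 2-fold higher. Chil3 was at 4142 CPM in S100a8-high and 1432 CPM in other cells (log2 1.53, 1.44 to 1.62). Cebpe had 13 UMIs in S100a8-high and 12 in other cells (log2 1.35). Hp (log2 0.70, 0.51 to 0.89) and Pglyrp1 (0.54, 0.18 to 0.89) lay below 2-fold. Of 5 measured genes of mature neutrophils Il1r2 was higher (log2 1.53, 0.56 to 2.51), Fpr1 lower (-1.16, -2.57 to 0.02), and Retnlg was at 58.6 CPM in S100a8-high and 48.0 CPM in other cells. None of 3 measured protease inhibitors passed 2-fold, with Slpi at 0.54 (0.23 to 0.85). Of 7 regulators Cebpe alone did, with Spi1 at -0.16 and Irf8 at -0.07. Of 4 receptors only Tlr4 did (log2 1.38, 0.00 to 2.77). Of 10 cell cycle genes only Ccnb2 did (log2 1.19, 0.74 to 1.63).

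Against other monocyte-like and macrophage-like cells together, 3.32% of 7618 genes were at least 2-fold higher in S100a8-high antiPD1 cells and 9.31% at least 2-fold lower. Outside the 10 genes, the highest with at least 50 UMIs were Chil3 (log2 2.09), Ccnb2 (1.72), Gstm1 (1.64), Pglyrp1 (1.50), Hmgb2 (1.50), Tuba4a (1.46), Hp (1.40), Cdca3 (1.40), Vcan (1.35) and Ube2c (1.33). Chil3, Pglyrp1 and Hp encode granule or secreted myeloid proteins, and Ccnb2, Cdca3 and Ube2c act in mitosis. The lowest were the complement genes C1qa (1.89 CPM in S100a8-high and 1543 CPM in other cells) and C1qc (log2 -5.27), Arg1 (0 CPM and 925 CPM), H2-Eb1 (-5.23) and Ms4a7 (-5.23), all genes of macrophages or antigen presentation.

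Between the libraries, monocyte-like and macrophage-like cells together had more calprotectin and granule transcripts in antiPD1. These 595 antiPD1 and 366 Control cells had 8320 and 260 calprotectin UMIs, a ratio of 17.3-fold (log2 4.11, 3.94 to 4.30). The S100a8-high cells, cut by S100a8 itself, held 7745 of the antiPD1 and 240 of the Control UMIs. Without them the log2 ratio was 4.20. Control then had 2 UMIs in other monocyte-like and 18 in macrophage-like cells, against 477 and 98 in antiPD1. Each of these Control levels lay below the 18.6 CPM of calprotectin in Control lymphocyte-like cells, a background level. What part the S100a8-high cells had in the 17.3-fold was thus not tested. Of 8578 genes measured, 5.16% were at least 2-fold higher in antiPD1 and 3.77% at least 2-fold lower. Of the 10 genes 6 were measured, and all 6 were higher, again a count that the choice of genes had used. Wfdc21 had 314 UMIs in antiPD1 and 3 in Control, a ratio of 56.6 (19.2 to 276), and the 3 lay in 1 macrophage-like cell. Lcn2 had 233 in antiPD1 and 0 in Control, at least 33.9-fold higher by its interval, and Elane had 64 and 0, at least 9.12-fold higher. Prtn3 had 206 in antiPD1 and 40 in Control, 2.79-fold (log2 1.48, 0.98 to 2.00). The make-up of the pooled cells differed, since macrophage-like cells were 329 of the 595 in antiPD1 and 296 of the 366 in Control. Among 9 other specific granule genes 7 were measured in these cells and 5 were at least 2-fold higher, among them Cebpe (log2 2.16), Pglyrp1 (1.74), Chil3 (1.54) and Hp (1.33). The median of the 7 was 1.54, against 0.03 over all tested genes. Of 10 cell cycle genes 5 were higher and none lower, and of 5 genes of mature neutrophils 1 was, Fpr1 (log2 3.55).

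Calprotectin counts also differed within single classes. In other monocyte-like cells S100a8 had 333 UMIs in antiPD1 and 2 in Control, a ratio of 27.3 (7.49 to 226). S100a9 had 144 in antiPD1 and 0 in Control, at least 6.32-fold higher by its interval. In this class 8.31% of 5629 genes were at least 2-fold higher in antiPD1 and 5.56% at least 2-fold lower. In macrophage-like cells outside the S100a8 cut, S100a8 had 56 UMIs in antiPD1 and 7 in Control (log2 3.08, 1.95 to 4.46). These levels were close to those of lymphocyte-like cells. The 3 Control cells that the cut took out of macrophage-like clusters held 117 S100a8 UMIs. In antiPD1 the cut took 1 cell from each macrophage-like cluster. The ratio and its direction thus do not describe the whole macrophage-like clusters. Prtn3 gave ratios of opposite sign: in other monocyte-like cells it was at 84.9 CPM in antiPD1 and 29.3 CPM in Control (log2 1.53, 0.36 to 3.01), and in macrophage-like cells at 12.7 CPM in antiPD1 and 21.3 CPM in Control (log2 -0.75, -1.67 to 0.13). Elane had 18 UMIs in antiPD1 and none in Control other monocyte-like cells, which allows up to 14.7 CPM there, a level near the 14.4 CPM of antiPD1. Lcn2 had 35 UMIs in antiPD1 and 0 in Control other monocyte-like cells, at least 1.47-fold higher by its interval. Wfdc21 had 53 and 0, at least 2.27-fold higher.

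The other specific granule genes did not differ in the same way in other monocyte-like cells, a class without the S100a8-high cells. Of 9 genes 5 were measured in other monocyte-like cells, 0 were at least 2-fold higher in antiPD1 and 2 were lower, with a median log2 ratio of -0.75, against 0.09 over all tested genes. Chil3 was at 1432 CPM in antiPD1 and 2355 CPM in Control (log2 -0.72, -0.86 to -0.57), and Hp at 445 CPM in antiPD1 and 748 CPM in Control (log2 -0.75, -1.01 to -0.48). Pglyrp1 was at 142 CPM in antiPD1 and 205 CPM in Control (log2 -0.53, -1.03 to -0.01). Cd177 (log2 -1.75, -2.88 to -0.54) and Mmp8 (-1.66, -2.64 to -0.62) were the 2 lower genes. Chil3, Hp and Pglyrp1 were thus higher in antiPD1 in the pooled monocyte-like and macrophage-like cells and lower in this class. The S100a8 cut took 63 of 264 antiPD1 and 0 of 67 Control cells out of the monocyte-like cluster. In the antiPD1 S100a8-high cells Chil3 was at 4142 CPM, Hp at 725 CPM and Pglyrp1 at 206 CPM. What part the cut had in the lower antiPD1 levels was not tested. Of 10 cell cycle genes 6 were at least 2-fold higher in antiPD1 in other monocyte-like cells.

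Lymphocyte-like cells and barcodes without cells give the background against which low levels are read. S100a8 had 177 UMIs in 1814 antiPD1 (36.7 CPM) and 11 in 558 Control lymphocyte-like cells (6.39 CPM), and S100a9 had 189 in antiPD1 (39.2 CPM) and 21 in Control (12.2 CPM). A UMI of S100a8 was in 7.17% of antiPD1 and 1.25% of Control lymphocyte-like cells, with median depths of 2278 and 2782 UMIs. In free RNA, barcodes of 10 to 50 UMIs, S100a8 was at 5094 CPM in antiPD1 and 342 CPM in Control, and S100a9 at 4305 and 217 CPM. Both lymphocyte-like cells and free RNA were thus higher in antiPD1. Of 8961 genes measured in lymphocyte-like cells, 3.68% were at least 2-fold higher in antiPD1, both calprotectin genes among them, and 2.75% at least 2-fold lower.

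The lymphocyte-like level was a small share of free RNA, at 0.720% for S100a8 and 0.910% for S100a9 in antiPD1, where macrophage genes gave 1.82%. The share depended on which barcodes stood for free RNA: with barcodes of 50 to 100 UMIs it was 2.24% for S100a8, 2.09% for S100a9 and 2.95% for macrophage genes in antiPD1. In Control the shares were 1.87% for S100a8, 5.61% for S100a9 and 1.84% for macrophage genes. The macrophage-like level of S100a8 without the S100a8-high cells, 39.5 CPM in antiPD1 and 4.66 CPM in Control, was close to that of lymphocyte-like cells. It is read as background. The 267 CPM of antiPD1 other monocyte-like cells stood above the 36.7 CPM of lymphocyte-like cells of the same library, whereas the 9.77 CPM of Control other monocyte-like cells rested on 2 UMIs.

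Free calprotectin RNA was set beside barcodes of rising depth. At 10 to 50 UMIs calprotectin was at 9399 CPM in antiPD1 (24140 barcodes) and 559 CPM in Control (2432 barcodes). At 51 to 100 UMIs it was at 3377 CPM in antiPD1 and at 0 UMIs in 63 Control barcodes, and at 101 to 200 UMIs at 4868 CPM in antiPD1 and at 0 UMIs in 71 Control barcodes. At 201 to 499 UMIs it was at 9449 CPM in 431 antiPD1 barcodes (8951 to 9968) and 8664 CPM in 130 Control barcodes (7812 to 9583). Of these ranges, the libraries lay closest in the barcodes just under the cell minimum.

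**Figure D5:**
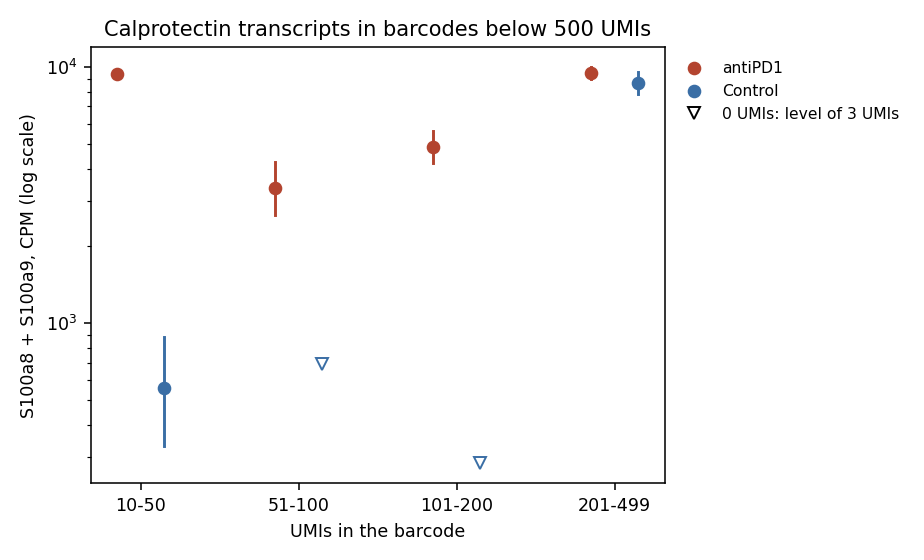
Summed level of S100a8 and S100a9 (y axis, CPM, log scale) in barcodes below the cell minimum, by the barcode's UMI total (x axis), antiPD1 left of Control, with 95% Poisson intervals. Open triangles mark the level of 3 UMIs where none was found. The libraries differ at 10 to 50 UMIs (9399 and 559 CPM) and lie close at 201 to 499 UMIs (9449 and 8664 CPM).

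Ltf was the exception among lymphocyte-like cells. It had 15 UMIs in antiPD1 and 4 in Control lymphocyte-like cells, against 4 and 0 in free RNA. Of these, 14 antiPD1 UMIs (10 of 379 cells) and all 4 Control UMIs (2 of 168 cells) lay in the T-cell cluster led by Tnfrsf4, Izumo1r and Foxp3, the regulatory T-cell factor, and other T-cell clusters had none among 732 antiPD1 and 19 Control cells. That cluster had 1 Ngp UMI and no Camp UMI in antiPD1, so Ltf stood there without the genes that accompanied it in neutrophil-like cells. The cluster was singled out after the values were seen, and the counts are small.

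Genes with the most similar profile were sought over the 19 combinations of cell class and library, by Pearson's r of log2(CPM + 10). The profiles share libraries and some hold few UMIs, so r is a description. For calprotectin they were Retnlg (0.918), Cebpe (0.897), Lrg1 (0.879), Nod1 (0.878) and Fpr1 (0.866). For the specific granule set they were Cebpe (0.930), Retnlg (0.905), Lrg1 (0.904), Fpr1 (0.895) and Nod1 (0.882), the same 5 genes. For the azurophil set they were Gpx3 (0.966), Saa3 (0.932), Vcan (0.925), Nhsl2 (0.916) and Lpl (0.909), none of them shared with the other sets. Gpx3 had 47.2 CPM in antiPD1 S100a8-high monocyte-like cells and 0 CPM in antiPD1 neutrophil-like cells, and Lpl 136 CPM and 3.11 CPM.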

How the data were processed

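The deposited matrices hold raw UMI counts per gene and barcode, made by the authors with Cell Ranger 2.1 on mm10, per the submitters' processing notes. They list 737280 barcodes per library, empty ones included. Total counts were 13717817 (antiPD1) and 5203415 (Control). Depth limits precision: a level rests on its UMI count, and 0 UMIs allow up to the level of 3.

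Barcodes with at least 500 UMIs and at most 10% mitochondrial UMIs were kept. Both libraries were clustered jointly (scanpy 1.11.5, Leiden algorithm of leidenalg 0.10.2, Python 3.11.15; 2000 variable genes without the 10 members, 30 components, 15 neighbours, resolution 1.0). Clusters were named from marker lists ("-like"); Trac, Trbc2, Ighm and Cebpd were not analysed here. Doublets were neither called nor removed. For each class of a library UMIs were summed and expressed per total UMIs of that class (CPM). Levels carry exact Poisson intervals, shares exact Clopper-Pearson intervals and ratios conditional binomial intervals, at 95%. UMIs of 1 cell are not independent, so intervals are too narrow for variation between cells. Ratios were formed for genes with at least 20 UMIs in the higher group, and a gene was counted as higher or lower past 2-fold, with less than 3 UMIs in the lower group set to 3. With 1 library per group nothing was tested. The code was checked on simulated counts.

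The genes, lists and marker sets were chosen with earlier results of these data known. Named genes were the 10 members, list genes with at least 20 UMIs, the 5 most similar genes per set, and the 10 highest and 5 lowest genes of S100a8-high cells with at least 50 UMIs. Some list genes with fewer UMIs, the promoter motifs, the division of the specific set and the depth bins were chosen after values were seen. Alternatives tried were UMI minima of 1000 and 1500, mitochondrial limits, resolutions, keeping the members in the clustering, CPM over other genes, subtraction of free RNA, free RNA from barcodes of 5 to 20 or 50 to 100 UMIs, other S100a8 cuts, thinning, and leaving out the deepest 5% of cells.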

Additional observations from a re-analysis of the deposited data

How the results depend on the processing

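No paired analysis was possible because each group has 1 library, and no replicate could be left out. Of the values recomputed, 1 changed direction: S100a8 UMIs per S100a9 UMI in antiPD1 neutrophil-like cells (1.53) was 0.912 within 500 to 999 UMIs. The calprotectin log2 ratio in neutrophil-like cells (1.83) was 2.69 with a minimum of 1000 UMIs, 3.76 with 1500 and 2.02 with CPM over other genes. Within 500 to 999 UMIs it was 0.25 and within 1000 to 1999 it was 1.74, both added after seeing the data, as were the same depth ranges for single genes, where Lcn2 (log2 3.93) was 0.72 and Wfdc21 (4.17) was 0.83 within 500 to 999 UMIs. In monocyte-like and macrophage-like cells together (4.11) it was 4.68 without the deepest 5% of cells. The 65 antiPD1 S100a8-high cells became 39 without the deepest 5%, 42 at 3000 CPM and 107 at 300 CPM. The 3 Control ones became 0 with monocyte-like clusters only, against 63 in antiPD1, an alternative added after seeing the data. The specific to azurophil ratio of antiPD1 S100a8-high cells (3.51) was 4.39 without the deepest 5% and 2.73 at 300 CPM. That of antiPD1 neutrophil-like cells stayed within its interval in all 11 alternatives. This interval, 854 to 25488, rested on 2 azurophil UMIs and is so wide that staying within it says little. Of 583 recomputed member levels 126 left their interval, and of 46 shares of cells 30 did after thinning. With free RNA taken from barcodes of 50 to 100 UMIs 10 of 11 member levels in free RNA left their interval, 8 of them at 0 UMIs. In antiPD1 S100a8 fell from 5094 to 1637 CPM and S100a9 from 4305 to 1871 CPM. With 5 to 20 UMIs 3 of 11 left their interval, and Elane had 5 UMIs in antiPD1. Control gave no specific to azurophil ratio in neutrophil-like cells, or without the deepest 5% in S100a8-high cells, for lack of azurophil UMIs. Depth limits the Control neutrophil-like cells most, at 40501 UMIs over 44 cells.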
